A study of Mus musculus with 2 samples.

Results

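The 10 genes described here make and load MHC class II molecules. They are H2-Aa, H2-Ab1 and H2-Eb1, Cd74, Ciita, H2-DMa, H2-DMb1 and H2-DMb2, H2-Oa, and Ctss. They were chosen by symbol, each symbol has 1 row, and they are 10 of the 32285 genes in the deposited matrices. They were read in single islet cells of NOD mice, which become diabetic through an immune attack on their own pancreatic beta cells. Mice were 5 weeks old when the diet started and ate it for 5 weeks. One group ate HAMSAB, a high-amylose maize starch that carries acetyl and butyryl groups. The other ate HAMS, the same type of starch without them. Both groups share the NOD genotype, and the number of mice behind a library is not stated in the labels. Each diet has 1 library, so no difference between the diets has a replicate check, no test between them exists, and all intervals are 95% intervals that cover counting error only.

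A class II molecule is an alpha and a beta chain that show peptides to CD4 T cells. H2-Aa and H2-Ab1 encode the 2 chains of I-A, and H2-Eb1 encodes the beta chain of I-E. NOD mice carry the I-A allele called I-Ag7, the strongest known genetic contributor to diabetes in this strain, and do not show I-E on their cells because of a defect in the gene of the I-E alpha chain. Cd74, the invariant chain, fills the groove until cathepsin S (Ctss) degrades it. DM (H2-DMa with an H2-DMb chain) then swaps the remaining fragment for peptide, and DO, of which H2-Oa is the alpha chain, inhibits DM. Ciita is the coactivator that switches on the class II chain genes, Cd74 and the DM genes, through factors bound to conserved promoter boxes called X and Y. B cells, macrophages and dendritic cells are the professional presenters, while mouse T cells as a rule do not make class II.

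In the GENCODE M21 annotation of GRCm38, H2-Aa, H2-Ab1, H2-Eb1, H2-DMa, H2-DMb1, H2-DMb2 and H2-Oa lie on chromosome 17, Ciita on chromosome 16 and Ctss on chromosome 3. The stretches below, from RefSeq promoter windows on GRCm38.p6, are shown because they hold the shared boxes. Capitals mark an X-type match (CNNNNAAC) and, further on, a Y-type match (TGATTGG, the CCAAT box read on the other strand). H2-Aa is on the minus strand, at chr17:34287837-34287937, and the others are on the plus strand. H2-Eb1 is at chr17:34305743-34305842, H2-DMb2 at chr17:34145093-34145193, and H2-Ob, the DO beta chain from the wider pathway list, at chr17:34238785-34238882.
H2-Aa: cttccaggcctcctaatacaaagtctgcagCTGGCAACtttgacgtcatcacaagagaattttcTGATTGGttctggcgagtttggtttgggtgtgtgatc
H2-Eb1: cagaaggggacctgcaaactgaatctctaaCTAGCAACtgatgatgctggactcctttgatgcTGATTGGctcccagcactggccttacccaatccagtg
H2-DMb2: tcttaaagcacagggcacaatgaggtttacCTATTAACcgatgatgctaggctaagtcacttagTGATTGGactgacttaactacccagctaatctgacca
H2-Ob: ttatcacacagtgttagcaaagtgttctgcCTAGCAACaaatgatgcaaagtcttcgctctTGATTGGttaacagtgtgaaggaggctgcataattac

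The starts of the 2 matches are 34 bases apart in H2-Aa and H2-DMb2, 33 in H2-Eb1 and 31 in H2-Ob. H2-DMb1 and H2-Oa also hold such a pair, each 34 bases apart, and H2-Oa has 2 overlapping X-type matches there. The 2 windows listed for H2-DMa and the 1 for Ctss hold no pair, which says only that these letters are not in them, and H2-Ab1, Cd74 and Ciita are named only. The letters were chosen after these windows were seen. Searched on both strands in the 250 bases before the start, the X-type letters occur in 75.6% of all 32851 windows and the Y-type letters in 7.23%. A pair in the order X then Y on the gene's strand, with starts 25 to 45 bases apart, occurs in 66 windows (0.201%). The pair is a description of sequence and not a measured binding site.

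In HAMSAB 5022 barcodes held 4254040 unique molecular identifiers (UMIs, each 1 captured transcript end), and in HAMS 4352 barcodes held 3599756. After a filter on genes and mitochondrial UMIs, 4628 HAMSAB and 4185 HAMS cells remained, with medians of 705 and 704 UMIs. The libraries share 6 barcodes, 4 of them among kept cells. Cells were clustered with the 10 genes and the wider pathway list left out of the variable genes, so that these genes did not make the classes they are read in. Classes were named from marker lists that hold none of the 10 genes. Macrophage-like cells were led by C1qb, Lyz2, C1qa and C1qc and B-like cells by Ms4a1, Ebf1, Cd79a and Pax5. The dendritic (DC-like) cluster had Xcr1 and Fscn1 among its leading genes, and plasmacytoid dendritic (pDC-like) cells had Siglech. A further myeloid cluster led by Il1r2, Ifitm1 and S100a4 had 10 dendritic markers in at least 5% of its cells but none among its 10 leading genes. It stays without a cell type name and is called the Il1r2 Ifitm1 cluster.

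Class II transcripts were highest in macrophage-like cells, next in the Il1r2 Ifitm1 cluster and DC-like cells, and lower in B-like and pDC-like cells. Summed over the 10 genes, macrophage-like cells held 34561 UMIs per 1000000 UMIs of the class (CPM; interval 33936 to 35195) in HAMSAB and 37113 (36379 to 37859) in HAMS. The Il1r2 Ifitm1 cluster held 27679 CPM (27267 to 28095) in HAMSAB and 27631 (27166 to 28101) in HAMS. DC-like cells held 18124 CPM (17555 to 18706) in HAMSAB and 20843 (20083 to 21624) in HAMS. These 3 classes stood apart from each other in both libraries. B-like cells held 9611 CPM (9375 to 9851) in HAMSAB and 9084 (8692 to 9488) in HAMS. pDC-like cells held 9479 CPM (8457 to 10589) in HAMSAB and 11732 (10195 to 13435) in HAMS, so the order of B-like and pDC-like cells was not resolved in HAMSAB, while pDC-like cells were above B-like cells in HAMS. Plasma-like cells, which are antibody-secreting and were few (62 in HAMSAB, 20 in HAMS), held 8125 CPM (7434 to 8863) in HAMSAB and 6385 (5206 to 7750) in HAMS.

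Below the immune presenters came ductal-like cells, led by Sox9, with 5992 CPM in HAMSAB and 6516 in HAMS. Delta-like cells, which make somatostatin, held 3274 CPM in HAMSAB and 2475 in HAMS. Alpha-like cells, which make glucagon, held 2529 CPM in HAMSAB and 2260 in HAMS. Endothelial-like cells, with the fibroblast gene Col1a1 also among their leading genes, held 1937 CPM in HAMSAB and 2097 in HAMS. Gamma-like cells, which make Ppy, held 1783 CPM in HAMSAB and 1720 in HAMS. Beta-like cells held 1021 CPM (949 to 1097) in HAMSAB and 1192 (1128 to 1259) in HAMS. T-like cells were at the bottom with 908 CPM (840 to 979) in HAMSAB and 857 (770 to 951) in HAMS. Beta-like cells were thus above T-like cells in HAMS, while in HAMSAB their intervals overlapped.

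**Figure D1:**
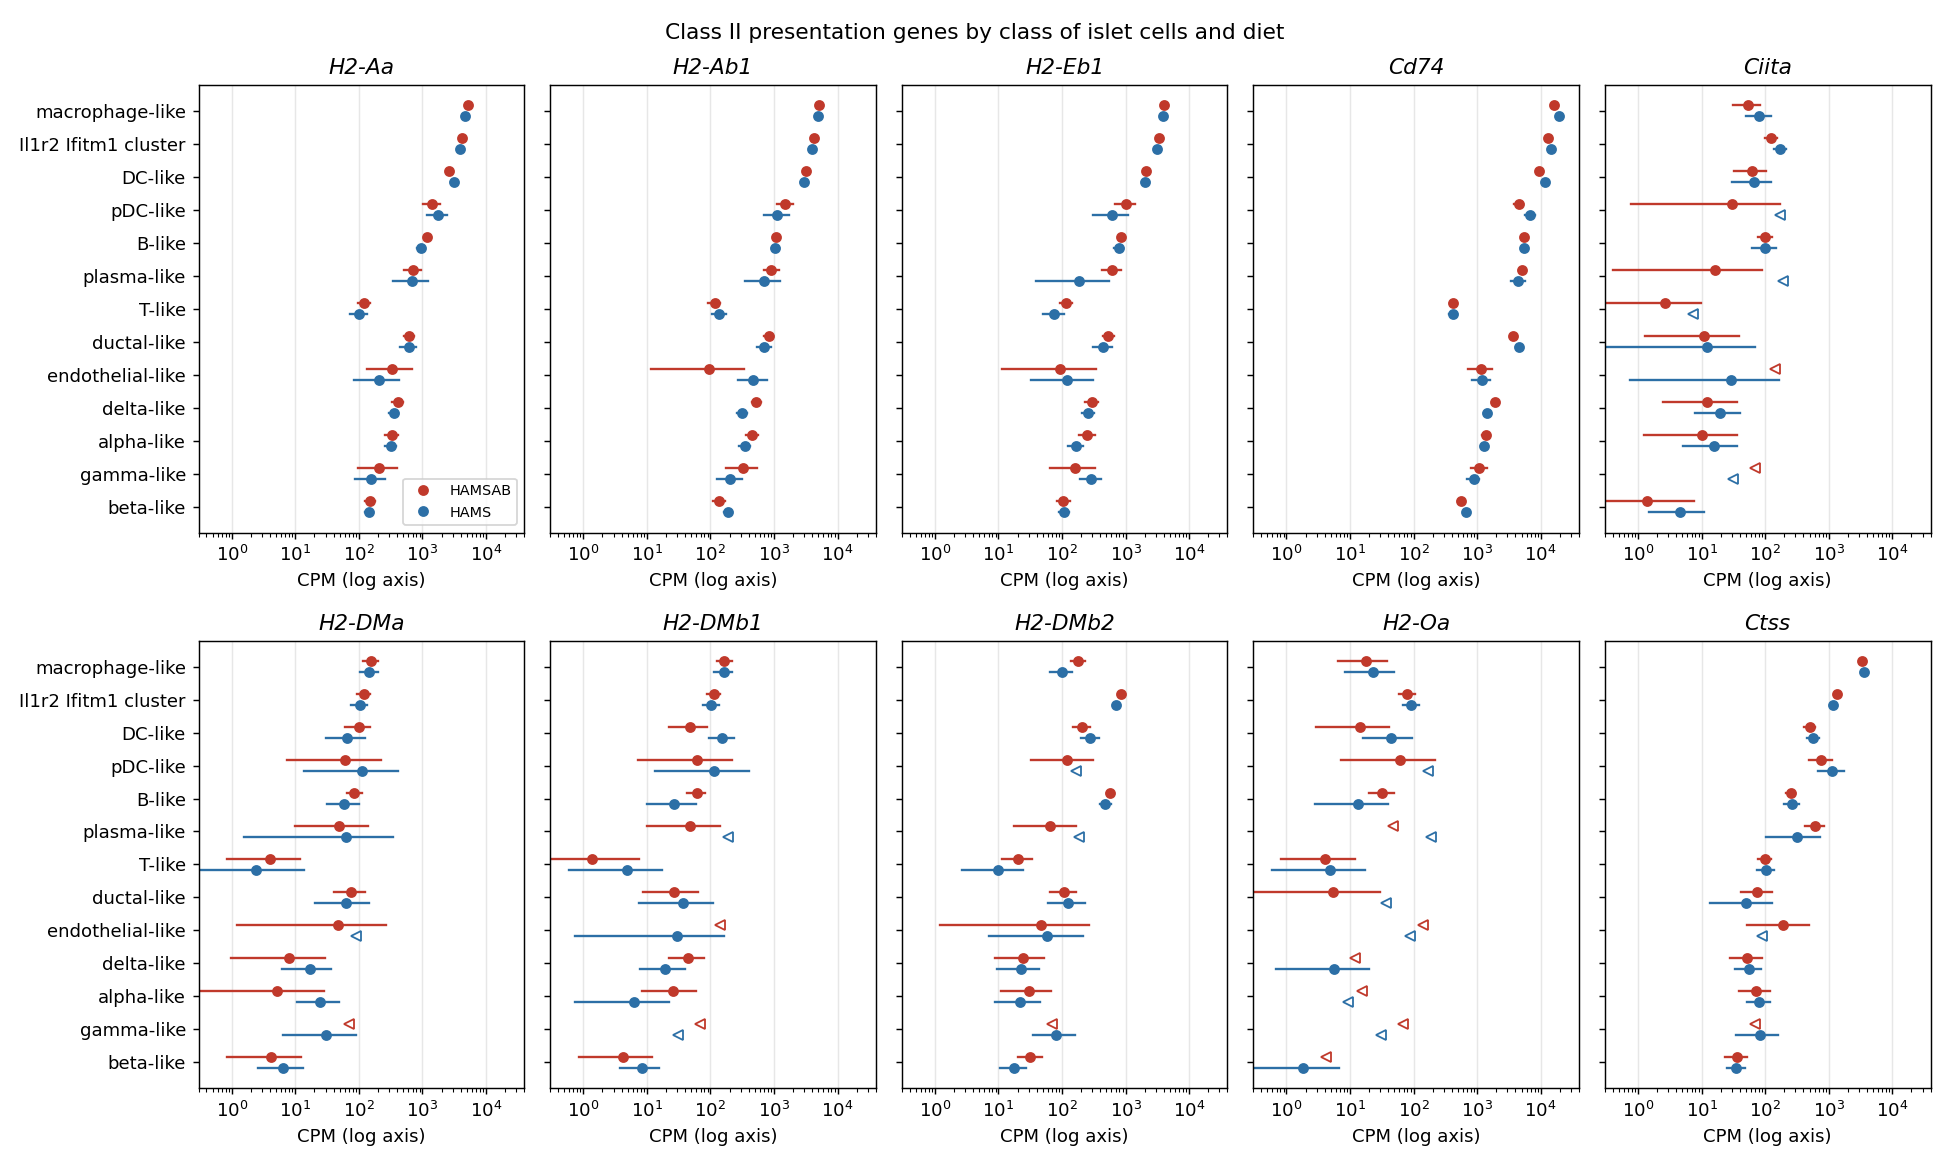
CPM (log axis) of each of the 10 genes in 13 classes of islet cells, in HAMSAB (red, upper point) and HAMS (blue, lower point), 1 library each. Lines are 95% Poisson intervals (drawn from 0.3 CPM) and open triangles stand at the limit that a count of 0 allows. The 4 most counted genes fall off together from macrophage-like cells over the Il1r2 Ifitm1 cluster and DC-like cells to B-like cells. Ctss keeps that order with a steeper fall, while H2-DMb2 and Ciita are highest in the Il1r2 Ifitm1 cluster.

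The I-A and I-E chain genes kept to one order, from macrophage-like cells over the Il1r2 Ifitm1 cluster and DC-like cells to B-like cells. H2-Aa was at 5116 CPM in HAMSAB and 4613 CPM in HAMS macrophage-like cells. In the Il1r2 Ifitm1 cluster it was at 4222 CPM in HAMSAB and 3837 in HAMS, and in DC-like cells at 2637 and 3091 CPM in the same order of diets. B-like cells held 1158 CPM of H2-Aa in HAMSAB and 939.8 in HAMS, below each of those classes. H2-Ab1 was at 5116 CPM in HAMSAB and 4850 in HAMS macrophage-like cells, at 4307 and 3969 CPM in the Il1r2 Ifitm1 cluster, at 3151 and 2922 CPM in DC-like cells and at 1074 and 1043 CPM in B-like cells of the same diets. H2-Eb1, whose I-E partner chain is not made in this strain, was at 3978 CPM in HAMSAB and 3929 in HAMS macrophage-like cells. It was at 3326 and 3124 CPM in the Il1r2 Ifitm1 cluster of these diets, at 2123 and 2048 CPM in DC-like cells and at 846 and 778 CPM in B-like cells. No row for the I-E alpha chain gene, under H2-Ea or H2-Ea-ps, was analysed here. The reference genome carries another H2 haplotype than NOD, and its effect on the counts of the polymorphic chains was not tested.

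A Cd74 UMI was found in 98.2% of HAMSAB and 99.7% of HAMS macrophage-like cells, in 97.7% of HAMSAB and 95.9% of HAMS B-like cells and in 51 of 68 HAMSAB and 27 of 34 HAMS pDC-like cells. Its level was 16473 CPM in HAMSAB and 19573 CPM in HAMS macrophage-like cells. It reached 13185 CPM in HAMSAB and 14349.5 CPM in HAMS cells of the Il1r2 Ifitm1 cluster, and 9284 and 11600 CPM in DC-like cells. B-like cells held 5441 CPM in HAMSAB and 5383 in HAMS. As a share of the UMIs of the 10 genes, Cd74 took 47.7% in HAMSAB and 52.7% in HAMS macrophage-like cells. That share was 56.6% in HAMSAB and 59.3% in HAMS B-like cells, and 62.0% in HAMSAB and 68.8% in HAMS ductal-like cells. Because these are counts of captured 3' ends, they were not divided by transcript length.

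Ctss, the protease that clears the invariant chain, was tilted towards macrophage-like cells. It was at 3306 CPM in HAMSAB and 3639 CPM in HAMS macrophage-like cells, against 1347 CPM in HAMSAB and 1183 CPM in HAMS cells of the Il1r2 Ifitm1 cluster. DC-like cells held 106 UMIs of Ctss in HAMSAB and 78 in HAMS, or 2.76% and 2.75% of their class II UMIs, and B-like cells 251 CPM in HAMSAB and 261 in HAMS. Ctss thus made up 9.57% of the HAMSAB and 9.80% of the HAMS class II UMIs in macrophage-like cells, but 2.61% and 2.87% in B-like cells of the same diets. The Ctss share was also high in pDC-like cells, at 7.99% in HAMSAB and 9.57% in HAMS, from 25 and 20 UMIs. T-like cells were at 10.9% and 12.1% and plasma-like cells at 7.48% and 4.90% in the same order of diets. In ductal-like cells it was 1.26% in HAMSAB and 0.758% in HAMS.

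**Figure D2:**
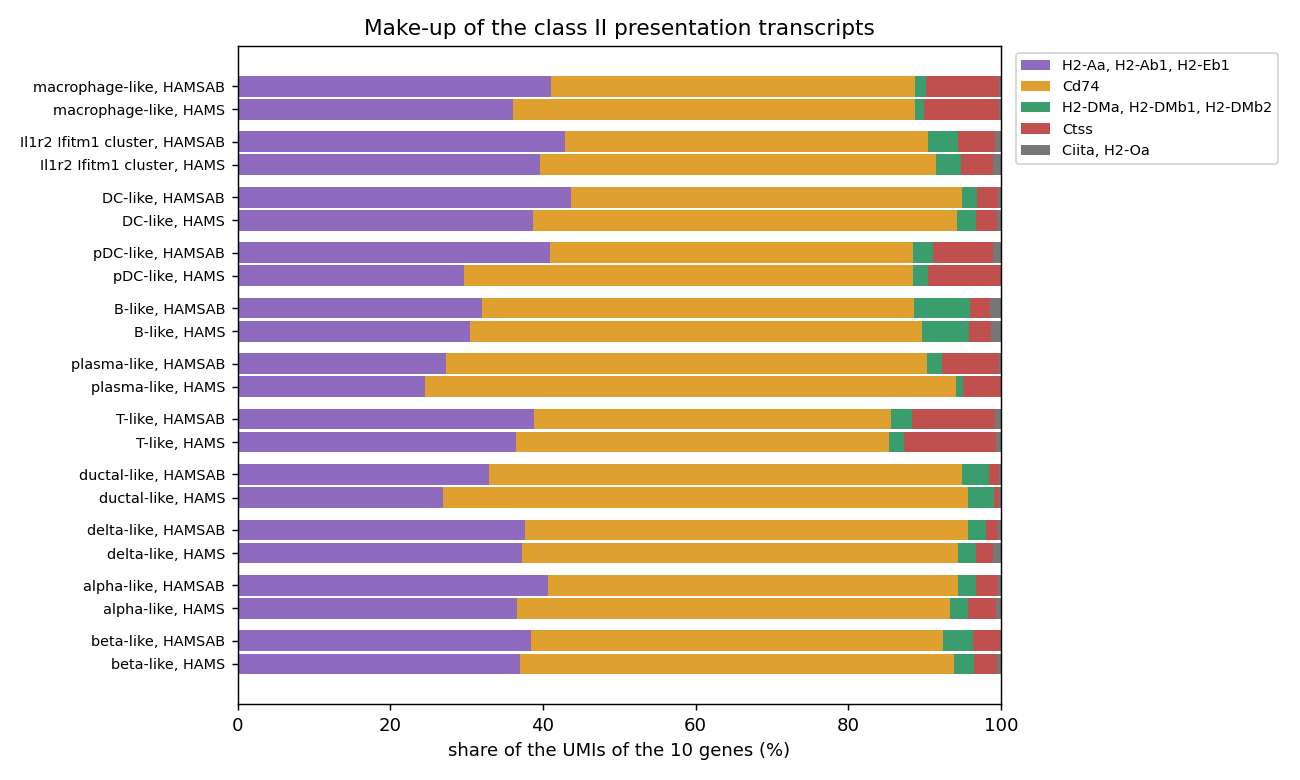
Share (%) of the UMIs of the 10 genes that each gene group takes, by class, with HAMSAB above HAMS. Classes with few UMIs (endothelial-like and gamma-like) are left out. Ctss (red) is widest in macrophage-like and T-like cells, and the DM genes (green) in B-like cells, at 7.38% in HAMSAB and 6.24% in HAMS.

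Ciita and the DO alpha chain were sparse. Ciita was at 125 CPM (99.0 to 156) in HAMSAB and 172 (137 to 213) in HAMS cells of the Il1r2 Ifitm1 cluster. B-like cells held 98.9 CPM in both diets, with intervals of 76.3 to 126 in HAMSAB and 62.0 to 150 in HAMS. Macrophage-like cells, with the most class II transcripts, held 53.5 CPM of Ciita (31.7 to 84.5) in HAMSAB and 80.3 (49.7 to 123) in HAMS. In both diets the Ciita interval of macrophage-like cells lay below that of the Il1r2 Ifitm1 cluster. H2-Oa was at 78.7 CPM in HAMSAB and 92.2 in HAMS cells of the Il1r2 Ifitm1 cluster, and at 32.0 and 13.5 CPM in B-like cells of the same diets, the lower value from 3 UMIs. In alpha-like cells H2-Oa had 0 UMIs in both libraries, which allows up to 15.2 CPM in HAMSAB and 9.31 in HAMS.

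The 2 genes for the DM beta chain were split by cell class. H2-DMb2 was at 854 CPM in HAMSAB and 699 CPM in HAMS cells of the Il1r2 Ifitm1 cluster, and at 563 and 481 CPM in B-like cells of the same diets. Macrophage-like cells held 181 CPM of H2-DMb2 in HAMSAB and 99.4 in HAMS. For H2-DMb1 the order was the other way round, with 166 CPM in HAMSAB and 161 in HAMS macrophage-like cells against 60.9 and 27.0 CPM in B-like cells. H2-DMa, the shared alpha chain, varied less, from 154 CPM in HAMSAB and 145 in HAMS macrophage-like cells to 85.2 and 58.5 CPM in B-like cells. H2-DMb2 made up 90.2% (87.0 to 92.9) of HAMSAB and 94.7% (88.8 to 98.0) of HAMS UMIs of the pair in B-like cells. In the Il1r2 Ifitm1 cluster it made up 88.2% (85.4 to 90.7) in HAMSAB and 87.2% (83.5 to 90.4) in HAMS. In macrophage-like cells the share was 52.1% (42.7 to 61.5) in HAMSAB and 38.2% (26.7 to 50.8) in HAMS, below both of those classes.

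At a finer clustering (resolution 2 in place of 1) the split was wider. The C1q cluster of macrophage-like cells had 32.9% (22.5 to 44.6) H2-DMb2 in HAMSAB and 27.7% (15.6 to 42.6) in HAMS. Among dendritic clusters, the one led by Fscn1, a marker of mature dendritic cells, had 95.3% (86.9 to 99.0) in HAMSAB and 89.2% (79.8 to 95.2) in HAMS. The one led by Xcr1, a receptor of cross-presenting dendritic cells, had 66.7% (46.0 to 83.5) in HAMSAB and 41.9% (24.5 to 60.9) in HAMS, below the Fscn1 cluster in both diets. The Fscn1 cluster drew 60.1% of its cells from the Il1r2 Ifitm1 cluster, and the Xcr1 cluster 97.6% from the DC-like cluster. The longest coding transcripts of the pair align with 69.1% identity. Of the stretches of 60 bases in the last 400 bases, 4.99% of those of H2-DMb1 occur in H2-DMb2 and 0% the other way. These are exact matches between reference transcripts. How reads of the NOD haplotype divide between the 2 genes was not tested. How the authors' counting treated reads that fit both genes is not given in the sources used here.

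**Figure D3:**
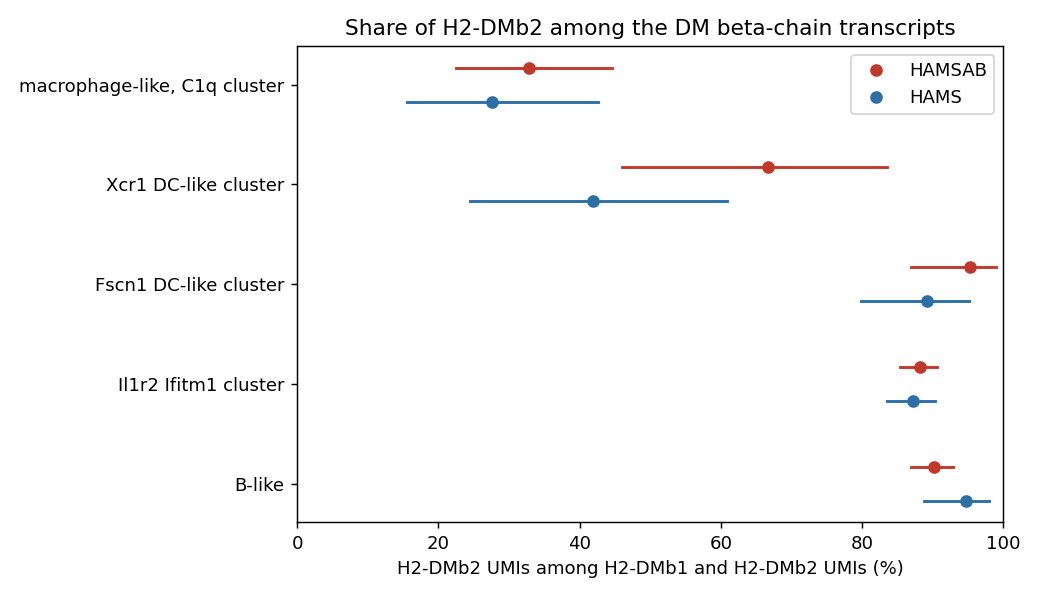
H2-DMb2 UMIs as a share (%) of H2-DMb1 and H2-DMb2 UMIs together, in HAMSAB (red, upper) and HAMS (blue, lower), 1 library each. Lines are exact 95% binomial intervals. The C1q macrophage-like cluster lies lowest, at 32.9% in HAMSAB and 27.7% in HAMS, and B-like cells are at 90.2% and 94.7%.

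The finer clusters also differed in their sum. A cluster led by Mgl2, Ptgs2 and Nlrp3, with 57.9% of its cells from the Il1r2 Ifitm1 cluster, held 33090 CPM of the 10 genes in HAMSAB and 33189 in HAMS, below the C1q cluster with 34958 and 37574 CPM in the same diets. The Fscn1 cluster held 21070 CPM in HAMSAB and 22895 in HAMS, and the Xcr1 cluster 19030 and 21610. Among B-like cells, the main cluster held 10510 CPM (10183 to 10845) in HAMSAB and 9639.9 (9128 to 10173) in HAMS. A second one with Rgs13 and Mef2b among its leading genes, both genes of germinal centre B cells, held 8891 CPM (8540 to 9252) in HAMSAB and 8467 (7843 to 9128) in HAMS. The 2 clusters were apart in HAMSAB and met at the edges of their intervals in HAMS.

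Genes with the most similar profile were sought over 26 points, the 13 classes in each of 2 libraries, by Pearson correlation of log2(CPM + 10). This is a description, since points of one library share its depth and its free RNA. Of 4868 genes with at least 200 UMIs, those closest to the mean of the 10 genes were Etv3 (r = 0.89), Cd86 (0.87), a costimulatory ligand for T cells, Lyn (0.87), Cd244a (0.87), Ly86 (0.87) and Ifi30 (0.85), the lysosomal thiol reductase. Ciita and H2-DMb2 were closest to H2-Ob (0.86 and 0.81) and also near H2-Eb2. H2-DMb1 was closest to Ctsh (0.90) and Ctss to Ms4a6c (0.89). Within the set, H2-Aa and Cd74 were the most alike pair (0.98) and H2-DMb2 and Ctss the least (0.47).

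Between the diets, the class II sum differed little in the larger presenting classes. It was lower in HAMSAB in pDC-like cells, where Cd74 was lower. H2-Aa and H2-Ab1 pointed in opposite directions there, each with an interval that included 0. The sum over the 10 genes had a log2 ratio of HAMSAB over HAMS of -0.10 (-0.14 to -0.06) in macrophage-like cells and 0.00 (-0.03 to 0.04) in the Il1r2 Ifitm1 cluster. It was -0.20 (-0.27 to -0.13) in DC-like cells, -0.31 (-0.56 to -0.05) in pDC-like cells and 0.08 (0.01 to 0.15) in B-like cells. The signs in macrophage-like, DC-like and B-like cells and in the Il1r2 Ifitm1 cluster turned under at least 1 other setting. Among cells with 500 genes or more, the ratio was 0.21 in macrophage-like and 0.034 in DC-like cells, and without the 5% of cells with the most UMIs it was -0.094 in B-like cells. Sums over a class do not tell fewer cells with a transcript from less RNA per cell.

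None of the 10 genes was at least 2-fold apart in any class in which it had at least 50 UMIs over both libraries. Among all genes with that many UMIs, 3.71% were 2-fold apart in either direction in macrophage-like cells, 2.64% in the Il1r2 Ifitm1 cluster, 2.92% in DC-like cells and 3.64% in B-like cells. In endocrine classes the share of all genes was 2.32% in delta-like, 4.54% in alpha-like and 3.22% in beta-like cells. With so few genes past that mark, a count of 0 among at most 10 is near this background.

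**Figure D4:**
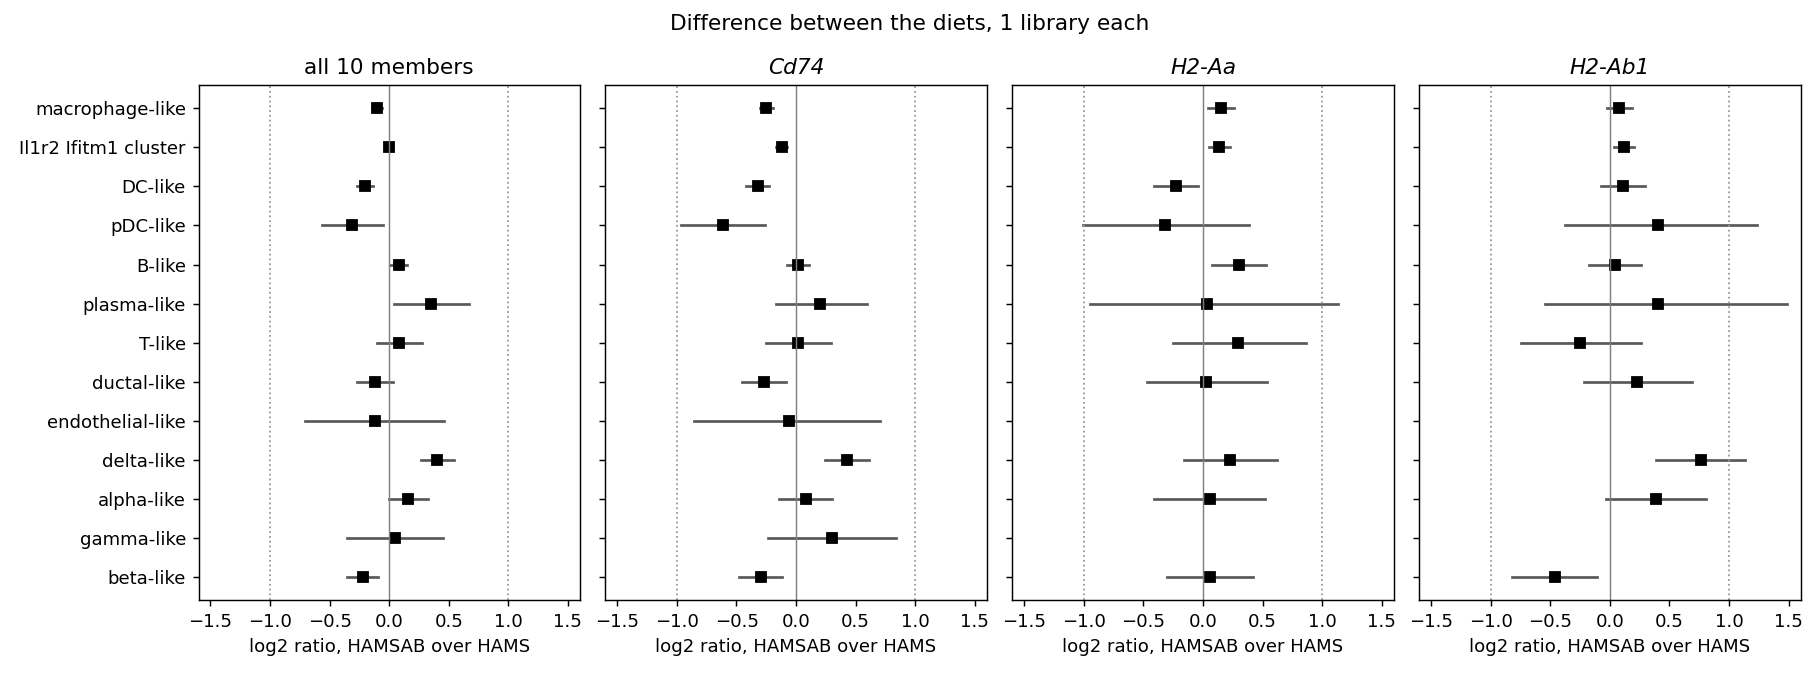
Log2 ratio of HAMSAB over HAMS by class for the sum of the 10 genes and for Cd74, H2-Aa and H2-Ab1, where at least 50 UMIs were counted. Lines are 95% intervals for counting error, and dotted lines mark 2-fold. No point passes 2-fold; the highest is H2-Ab1 in delta-like cells at 0.76 and the lowest Cd74 in pDC-like cells at -0.61.

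Smaller shifts were read by whether the interval lay off 0. This depends on the UMI count, and the shares of all genes given here and below are not matched for it. In the Il1r2 Ifitm1 cluster H2-Aa, with 2630 HAMSAB and 1872 HAMS UMIs, lay off 0 at 0.14. H2-DMa, with 74 and 50 UMIs, did not at 0.21. A higher share among the 10 genes is therefore not read as an excess of shifts. In macrophage-like cells 2 of 8 measured genes lay above 0, against 10.3% of all genes, and 2 below, against 9.44%. H2-Aa was higher in HAMSAB there by 0.15 (0.04 to 0.26) and H2-DMb2 by 0.87 (0.18 to 1.59, from 61 HAMSAB and 26 HAMS UMIs). Cd74 was lower by a log2 ratio of -0.25 (-0.30 to -0.19) and Ctss by -0.14 (-0.26 to -0.01). Over the alternatives H2-DMb2 ranged from 0.11 to 1.06 and Ctss from -0.28 to 0.16 in these cells. In the finer C1q cluster of macrophage-like cells H2-DMb2 had only 25 HAMSAB and 13 HAMS UMIs. Its intervals overlapped there, at 91.8 CPM (59.4 to 136) in HAMSAB and 58.1 (30.9 to 99.3) in HAMS. In the Il1r2 Ifitm1 cluster 4 of 10 lay above 0, against 12% of all genes, and 1 below, against 8.78%. Those above were H2-Aa (0.14), H2-Ab1 (0.12), H2-DMb2 (0.29) and Ctss (0.19), and Cd74 was below at -0.12 (-0.17 to -0.08). Ctss was between -0.0049 and 0.37 over the alternatives there, and the other 4 kept their signs.

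In DC-like cells 0 of 6 measured genes lay above 0, against 9.12% of all genes, and 2 below, against 8.39%. These were Cd74 at -0.32 (-0.42 to -0.22) and H2-Aa at -0.23 (-0.41 to -0.04), the second of which ranged from -0.32 to 0.075 over the alternatives. In B-like cells 1 of 8 lay above 0, against 8.88% of all genes, and 0 below, against 6.71%. That gene was H2-Aa at 0.30 (0.08 to 0.53), while Cd74 was at 0.02 (-0.08 to 0.11). In pDC-like cells 0 of 3 measured genes lay above 0, against 12.6% of all genes, and 1 below, against 11.7%. This was Cd74 at -0.61 (-0.97 to -0.26), from 149 HAMSAB and 123 HAMS UMIs. H2-Aa was at -0.32 there, while H2-Ab1 was at 0.40 and ranged from 0.13 to 0.42 over the alternatives. H2-Eb1 was at 999 CPM in HAMSAB and 617 in HAMS pDC-like cells, from 33 and 11 UMIs. Cd74 kept a negative ratio in macrophage-like, DC-like and pDC-like cells and in the Il1r2 Ifitm1 cluster under every alternative that gave a value. In macrophage-like cells it ranged from -0.31 to -0.034 over these. The median log2 ratio of the measured genes was 0.06 in macrophage-like cells, against 0.01 over all genes. It was 0.13 against 0.04 in the Il1r2 Ifitm1 cluster, -0.21 against 0.01 in DC-like cells and 0.08 against 0.04 in B-like cells.

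The authors' deposited tables list members in 5 of 8 cell types. In the authors' deposited table for macrophages, Cd74 has a log2 fold change of -0.33 with HAMSAB first (adjusted p = 0.0649) and Ctss one of -0.22 (adjusted p = 1). In the authors' deposited table for plasmacytoid dendritic cells Cd74 is at -0.74 (adjusted p = 1), and in that for conventional dendritic cells Ctss is at 0.20 and H2-DMb2 at 0.21 (adjusted p = 1 for each). In the authors' deposited tables Cd74 is at 0.74 in delta cells (adjusted p = 0.170) and 0.29 in alpha cells (adjusted p = 1). Read from the counts, Ctss was at -0.20 and H2-DMb2 at -0.43 in DC-like cells, opposite in sign to the authors' conventional dendritic values. In the Il1r2 Ifitm1 cluster Ctss was at 0.19 and H2-DMb2 at 0.29. Which of these clusters the authors' conventional dendritic cells match was not tested. None of the 10 genes is in the authors' deposited tables for B, T or beta cells. With 1 library per diet these p-values are not tests across mice.

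Of 29 symbols in the wider class II pathway list (regulators, other proteases, the H2-Ob and H2-Eb2 chains), 25 have a row. In the Il1r2 Ifitm1 cluster 16 had at least 50 UMIs and 1 was 2-fold apart, against 2.64% of all genes. This was Irf4, a transcription factor of B and dendritic cells, with 88.3 CPM in HAMSAB and 43.0 in HAMS, a log2 ratio of 1.04 (0.29 to 1.84). In B-like cells 17 were measured and 1 was 2-fold apart, against 3.64% of all genes, again Irf4, with 92.8 CPM in HAMSAB and 40.5 in HAMS, a ratio of 1.20 (0.18 to 2.39, from 61 HAMSAB and 9 HAMS UMIs). In beta-like cells 13 were measured and 1 was 2-fold apart, against 3.22% of all genes, the cathepsin Ctsz at -1.08 (-2.15 to -0.11, from 12 HAMSAB and 38 HAMS UMIs). In T-like cells, where 3.1% of all genes were 2-fold apart, Cd83 was the 1 of 10 measured, at 1.503 (0.63 to 2.49), from 66 HAMSAB and 13 HAMS UMIs. No other listed gene was 2-fold apart in macrophage-like (13 measured), DC-like (8), delta-like (4) or alpha-like cells (5). Cd83, which keeps class II on the cell surface, was higher in HAMSAB by 0.67 (0.14 to 1.22) in macrophage-like cells and 0.58 (0.28 to 0.88) in the Il1r2 Ifitm1 cluster. In that cluster 2 of the 16 lay above 0, against 12% of all genes, and 4 below, against 8.78%. In beta-like cells 4 of the 13 lay above 0, against 13.8% of all genes, and 2 below, against 11.8%. In the Il1r2 Ifitm1 cluster Irf8, a transcription factor of dendritic and B cells, was at -0.87 (-1.35 to -0.40).

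Endocrine cells held class II UMIs at a low level, and the level differed between endocrine types. Of delta-like cells, 61.4% (55.9 to 66.6) in HAMSAB and 50.9% (46.2 to 55.6) in HAMS had at least 1 UMI of the 10 genes. Of alpha-like cells, 133 of 267 in HAMSAB (interval 43.7% to 56.0%) and 151 of 457 in HAMS (28.7% to 37.6%) had one. For beta-like cells it was 27.0% (23.8 to 30.4) in HAMSAB and 24.5% (22.2 to 26.9) in HAMS. T-like cells, taken as cells that should lack class II, gave 19.8% (16.9 to 23.0) in HAMSAB and 23.2% (18.7 to 28.2) in HAMS. Part of this was Ctss, found in 8.07% of HAMSAB and 10.7% of HAMS T-like cells, against 2.49% and 2.09% of beta-like cells. A Cd74 UMI was in 20.8% (17.9 to 23.9) of HAMSAB and 17.7% (15.7 to 19.9) of HAMS beta-like cells. For T-like cells it was 11.2% (8.96 to 13.8) in HAMSAB and 12.2% (8.84 to 16.3) in HAMS. Median depths were 634 UMIs in HAMSAB and 704 in HAMS delta-like cells, 646 and 598 in alpha-like, 803 and 673 in beta-like and 785 and 961 in T-like cells.

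Depth was then made equal by thinning each cell to 500 UMIs, which left out 113 HAMSAB and 109 HAMS delta-like, 82 and 164 alpha-like, 142 and 394 beta-like, and 152 and 52 T-like cells. Delta-like cells then had a share of 55.2% (48.4 to 61.9) in HAMSAB and 42.7% (37.4 to 48.2) in HAMS. Alpha-like cells had 49.7% (42.3 to 57.2) in HAMSAB and 27.3% (22.3 to 32.8) in HAMS, and beta-like cells 19.7% (16.5 to 23.1) and 22.4% (19.8 to 25.2). T-like cells had 14.6% (11.8 to 17.8) in HAMSAB and 14.2% (10.3 to 19.0) in HAMS. Delta-like and alpha-like cells thus lay above T-like cells in both libraries, and beta-like cells in HAMS, while in HAMSAB the beta-like interval overlapped that of T-like cells. Thinned to 1000 UMIs, HAMSAB beta-like cells had 33.1% (27.6 to 39.0) and T-like cells 21.6% (16.7 to 27.1), which do not overlap, nor did they with all UMIs, so the call for HAMSAB beta-like cells depends on the depth. At 500 UMIs the shares of delta-like and alpha-like cells were higher in HAMSAB than in HAMS, and beta-like shares overlapped. The delta-like intervals were only just apart and overlapped at 1000 UMIs, with 66.0% to 87.5% in HAMSAB and 49.5% to 68.9% in HAMS.

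**Figure D5:**
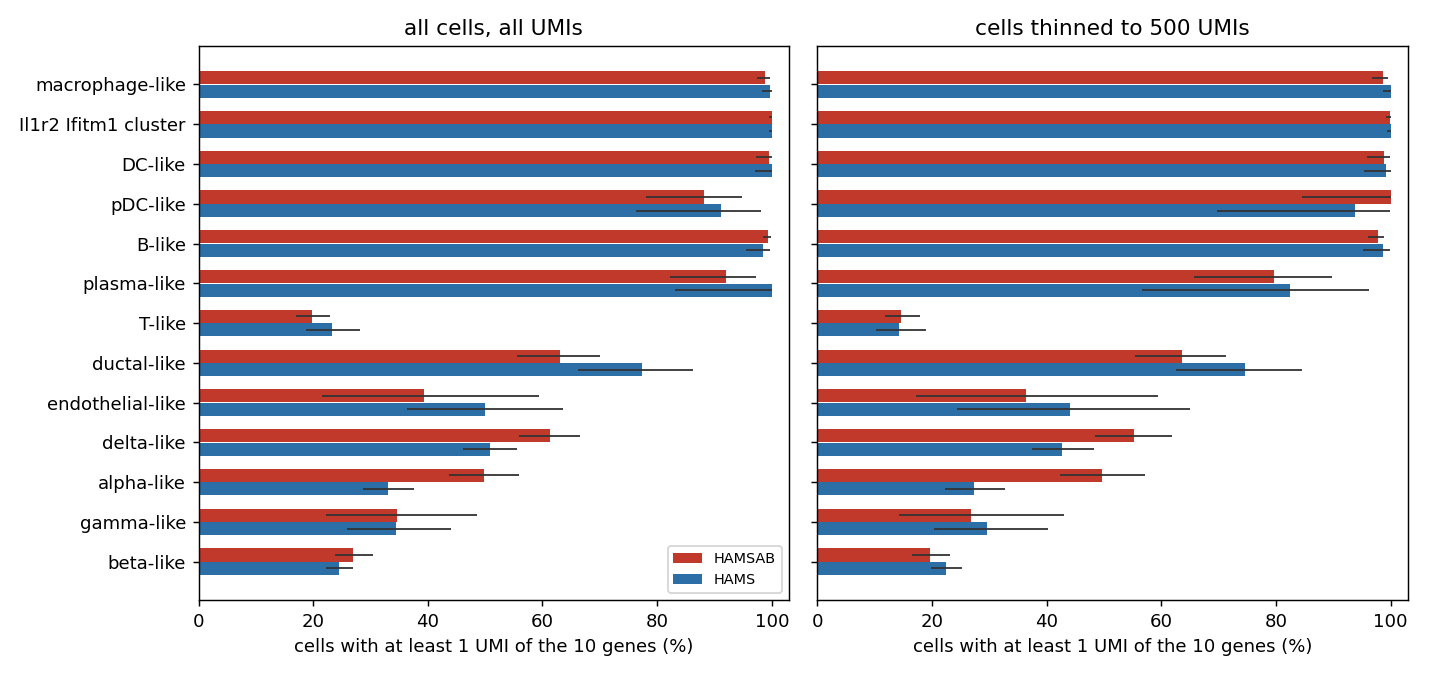
Share (%) of cells with at least 1 UMI of the 10 genes, by class, with HAMSAB (red) above HAMS (blue). The left panel uses all cells and all UMIs, the right panel cells thinned to 500 UMIs, and lines are exact 95% binomial intervals. After thinning, delta-like cells are at 55.2% in HAMSAB and 42.7% in HAMS and T-like cells at 14.6% and 14.2%.

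By gene, the endocrine UMIs were mostly Cd74. Delta-like cells held 1898 CPM of Cd74 in HAMSAB and 1413 in HAMS, a log2 ratio of 0.43 (0.24 to 0.61), and 530 and 313 CPM of H2-Ab1, a ratio of 0.76 (0.39 to 1.14). These 2 of 4 measured genes lay above 0, against 11.6% of all genes in delta-like cells, and 0 lay below, against 6.49%. In alpha-like cells 1 of 4 lay above 0, against 6.84% of all genes, namely H2-Eb1 at 0.59 (0.0036 to 1.18), and 0 below, against 16.3%. In beta-like cells 0 of 5 lay above 0, against 13.8% of all genes, and 2 below, against 11.8%. These were Cd74, with 551 CPM in HAMSAB and 677 in HAMS (-0.30, -0.48 to -0.12), and H2-Ab1, with 137 and 189 CPM (-0.46, -0.82 to -0.11). Over the alternatives H2-Ab1 ranged from 0.44 to 1.66 in delta-like and from -0.61 to -0.23 in beta-like cells, and Cd74 in beta-like cells from -0.55 to 0.053. The sum over the 10 genes was at 0.40 (0.26 to 0.54) in delta-like, 0.16 (-0.00 to 0.33) in alpha-like and -0.22 (-0.36 to -0.09) in beta-like cells. Among cells with 500 genes or more it was 0.89 in delta-like, 0.46 in alpha-like and -0.027 (-0.27 to 0.22) in beta-like cells. The beta-like interval also included 0 at Leiden resolution 2 (-0.25 to 0.04) and with class II genes kept in the clustering (-0.23 to 0.02). The same held with cells classed by their own markers (-0.27 to 0.01).

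Immune transcripts other than class II were at a low level in endocrine cells, where class II was low too. The 11 genes Ptprc, Cd79a, Cd79b, Cd3e, Cd3d, Tyrobp, C1qa, C1qb, C1qc, Lyz2 and Laptm5 summed to 112 CPM in HAMSAB and 89.6 CPM in HAMS endocrine cells, with 11 and 10 of them detected. In delta-like cells the sum was 125 CPM in HAMSAB and 126 in HAMS, with Tyrobp at 0 UMIs in HAMSAB and at 4 in HAMS. The macrophage genes C1qb and C1qa had 1 and 13 UMIs in HAMSAB and 2 and 21 in HAMS endocrine cells. Tyrobp had 13 UMIs in HAMSAB and 19 in HAMS endocrine cells, beside 2123 and 3076 UMIs of the 10 class II genes. In the Il1r2 Ifitm1 cluster Tyrobp had 147 HAMSAB and 109 HAMS UMIs beside 17241 and 13479 class II UMIs. The 11 genes together had 135 UMIs in HAMSAB and 167 in HAMS endocrine cells, and 959 and 656 in that cluster. They had 124 and 81 UMIs in DC-like cells, beside 3842 and 2839 of class II. In macrophage-like cells they had 2547 and 1900 UMIs, beside 11634 and 9710 of class II.

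Most endocrine cells, 1299 of 1378 in HAMSAB and 2237 of 2355 in HAMS, had no UMI of those 11 genes. In the Il1r2 Ifitm1 cluster 44.9% of HAMSAB and 48.2% of HAMS cells also had none, and 59.3% and 57.0% of DC-like cells. Between 99.1% and 100% of those had a class II UMI. For macrophage-like cells the share with none was 8.35% in HAMSAB and 6.71% in HAMS. Lacking such a UMI thus does not mark a cell as free of immune RNA. Among endocrine cells without one, 59.5% (53.8 to 65.0) of HAMSAB and 49.8% (44.9 to 54.7) of HAMS delta-like cells had a class II UMI. The share was 47.0% (40.7 to 53.4) in HAMSAB and 30.8% (26.5 to 35.4) in HAMS alpha-like cells. The delta-like intervals overlapped between the diets, and the alpha-like ones did not. Thinned to 500 UMIs, such delta-like cells were at 54.5% (47.3 to 61.5) in HAMSAB and 42.3% (36.7 to 48.0) in HAMS. Alpha-like cells were then at 47.6% (39.9 to 55.4) in HAMSAB and 22.9% (18.0 to 28.3) in HAMS, and beta-like cells at 17.3% (14.2 to 20.7) and 19.8% (17.2 to 22.6). T-like cells without such a UMI, which were few since Cd3e and Ptprc are among the 11 genes, were at 16.3% (10.2 to 24.0) in HAMSAB and 17.2% (8.59 to 29.4) in HAMS. Delta-like cells of both diets and HAMSAB alpha-like cells then still lay above T-like cells, while HAMS alpha-like cells and beta-like cells of both diets overlapped them. Ctss took 2.50% of the class II UMIs of HAMSAB and 2.99% of HAMS endocrine cells, against 10.9% in HAMSAB and 12.1% in HAMS T-like cells. Macrophage-like cells were at 9.57% and 9.80%, DC-like cells at 2.76% and 2.75% and B-like cells at 2.61% and 2.87%. The share of Ctss in endocrine cells was thus below that of T-like and macrophage-like cells. The DM genes took 2.83% in HAMSAB and 2.73% in HAMS endocrine cells, against 7.38% and 6.24% in B-like and 1.95% and 2.395% in DC-like cells.

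The class II UMIs were unevenly spread over endocrine cells. Cells with 10 or more were 48 of 1378 in HAMSAB (3.48%) and 92 of 2355 in HAMS (3.91%), and they held 39.0% of the HAMSAB and 50.1% of the HAMS class II UMIs of endocrine cells. An immune-gene UMI was present in 60.4% of these in HAMSAB and 54.3% in HAMS, against 3.76% and 3.005% of the other endocrine cells. Their median depth was 1426 UMIs in HAMSAB and 1207 in HAMS, against 694 and 655 in the others. T-like cells were uneven too. In HAMSAB 28 of 706 and in HAMS 15 of 319 T-like cells had 10 or more. They held 69.3% and 69.5% of the class II UMIs of T-like cells. Among finer clusters of T-like cells, the one led by Nkg7, Rgs16 and Gzmk held 232 CPM in HAMSAB and 293 in HAMS. The one led by Tcf7 held 1073 and 867 CPM, and the one led by Maf 887 and 1628. Doublets were not removed, and their part in these values was not tested.

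Among finer beta-like clusters the sum differed. The cluster led by the interferon-induced GTPase genes Gbp4 and Iigp1 held 1251 CPM in HAMSAB and 1062 in HAMS. The one led by Ins2, Ins1 and Lrrc10b held 1277 and 1504 CPM. The remaining 2 named clusters were lower, at 482 CPM in HAMSAB and 525 in HAMS (led by Mafa and Prlr) and at 525 and 365 CPM (led by Mt2 and Rasd1). An unnamed group of 20 cells, all from the beta-like clusters and with Ptges among its leading genes, held 12597 CPM in HAMSAB (5 cells) and 14292 in HAMS (15 cells). These cells held 102 HAMSAB and 251 HAMS UMIs of the 10 genes, out of 738 and 1294 in all beta-like cells. They are part of the beta-like ratio given above.

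The libraries also differed in make-up. The 10 genes took 1.07% of the UMIs of kept HAMSAB cells and 0.917% of those of HAMS cells. B-like cells were 13.9% of HAMSAB and 4.61% of HAMS cells, the Il1r2 Ifitm1 cluster 19.5% and 16.2%, and endocrine cells 29.8% and 56.3%. The part of free RNA from immune cells in the endocrine values was not tested.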

How the data were processed

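The data are 2 droplet libraries of NOD islet cells, 1 per diet, grouped by the treatment label. The deposited matrices hold each gene's UMI count per barcode, not normalized, written by Cell Ranger 5.0.0 per the file headers. Seurat and the builds mm10 and GRCm38 are named in the submitters' processing notes, while the sources used here give neither the cell calling nor the annotation release. Per cell type, 8 deposited tables set HAMSAB against HAMS by the authors' own log2 fold changes and p-values.

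Barcodes under 200 genes or over 20% mitochondrial UMIs were dropped. Both libraries were clustered together (scanpy 1.11.5, 2000 variable genes, 30 components, 15 neighbours, Leiden resolution 1 in igraph 0.11.9). A cluster took the class with the most markers among its 10 leading genes, if it was 1 of the 2 highest-scoring classes and 3 of its markers were in at least 5% of cells. That naming rule, and reading the cDC1, cDC2 and mature DC lists together, were settled after the clusters were seen. Doublets were kept. Classes with at least 20 cells per library were compared.

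CPM has exact Poisson intervals, a log2 ratio an exact conditional binomial interval and a share an exact Clopper-Pearson interval. A gene counted as apart at 2-fold with at least 50 UMIs. A count of 0 allows up to 3 UMIs of the class total. The calculations were tested on simulated data. All 10 genes are described. From the wider list the genes named are those at least 2-fold apart between the diets, and Cd83 and Irf8 were added after their values were seen, as were the finer clusters. The genes and lists were chosen with earlier results of these data known. The alternatives were other cell filters, clusterings, class calls, weights, depths and denominators.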

Additional observations from a re-analysis of the deposited data

Results flagged for a closer look

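Some of the genes were higher in HAMSAB in 1 class and lower in another, with counting intervals off 0 on both sides. The difference between classes was not tested, since each diet has 1 library. The sum of the 10 genes had a log2 ratio of HAMSAB over HAMS of 0.40 in delta-like and -0.31 in pDC-like cells. H2-Aa was at 0.30 in B-like and -0.23 in DC-like cells. H2-Ab1 was at 0.76 in delta-like and -0.46 in beta-like cells. Cd74 was at 0.43 in delta-like and -0.61 in pDC-like cells. Ctss was at 0.19 in the Il1r2 Ifitm1 cluster and -0.14 in macrophage-like cells.

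The barcodes left out by the filter on genes and mitochondrial UMIs, 394 in HAMSAB and 167 in HAMS, also held class II UMIs. Their level was 17824 CPM (17181 to 18486) in HAMSAB and 15818 CPM (14875 to 16806) in HAMS. They are given because these barcodes enter no comparison.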

How the results depend on the processing

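No paired analysis was possible because each diet has 1 library. Among cells with 500 genes or more, clustered anew, the summed log2 ratio was 0.21 in macrophage-like, 0.14 in Il1r2 Ifitm1, 0.034 in DC-like, 0.89 in delta-like, 0.46 in alpha-like and -0.027 in beta-like cells. Thinned to 500 UMIs it was -0.14 in macrophage-like, 0.039 in Il1r2 Ifitm1, -0.28 in DC-like, 0.26 in delta-like and -0.48 in beta-like cells. Classing every cell from its own markers gave -0.15 in macrophage-like, -0.11 in DC-like and 0.25 in endocrine cells, and weighting cells equally gave -0.17 in macrophage-like, -0.011 in B-like and 0.30 in endocrine cells, against 0.09 for endocrine cells as reported. It was -0.053 in DC-like cells at Leiden resolution 2, -0.042 in the Il1r2 Ifitm1 cluster with class II genes kept in the clustering and -0.037 there with mitochondrial genes, hormone genes and Actb left out of the total. Without the 5% of cells with the most UMIs it was -0.094 in B-like and 0.40 in alpha-like cells. Values of the Il1r2 Ifitm1 cluster could not be had with cells classed by their own markers.

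With at least 20 in place of 50 UMIs, the number of genes 2-fold apart was 310 in macrophage-like, 388 in Il1r2 Ifitm1, 205 in DC-like, 549 in B-like, 367 in delta-like, 373 in alpha-like and 605 in beta-like cells, in place of 59, 67, 24, 94, 44, 71 and 149. Thinned to 1000 UMIs, the share with a class II UMI was 78.1% in HAMSAB and 59.4% in HAMS delta-like cells, 76.7% and 44.9% in alpha-like and 33.1% and 37.1% in beta-like cells, against 21.6% and 21.1% in T-like cells. Endocrine cells without an immune-gene UMI held 1346 CPM in HAMSAB and 1199 in HAMS, in place of 1754 and 1651. The causes were not tested.

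Of 78 alternative values of these summed ratios, 70 kept the sign. Of 631 for single genes and other classes, 534 kept it, and 547 lay within the reported interval. Leaving out barcodes found in both libraries was added after the data were seen. At medians of 705 UMIs per HAMSAB and 704 per HAMS cell, Ciita, H2-Oa and the DM genes rest on few UMIs in most classes.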
